A study of Homo sapiens with 131 samples.

Results

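The 3 libraries examined here came from HCT116 cells in which the RNA deaminase APOBEC1 had been joined to the N-terminal side of a decapping-complex protein: DCP2, EDC3 or EDC4. They are 3 of the 131 samples of the series, and each construct had 1 library. They were chosen by their labels and taken as 1 arm against the 3 libraries of unfused APOBEC1 (APOBEC1-control). HCT116 is an established human colorectal carcinoma line. The labels call all 6 samples induced, so that the controls also carried induced APOBEC1, and they name the fusions APOBEC-DCP2, APOBEC-EDC3 and APOBEC1-EDC4. They give no inducing agent, duration, promoter or clone, and the order of the parts within a construct was read from its name. Polyadenylated RNA was sequenced, and for each gene the deposited files give the reads and the edited reads. The editing score used here is edited reads as a percentage of reads. The files do not say which base of a transcript was edited. The labels do not say that libraries came from separate cultures, so p-values measure only the spread between these libraries, and within the arm that spread includes the differences between the 3 proteins.

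DCP2 is the catalytic subunit that cleaves the cap from an mRNA and so opens it to 5′-to-3′ decay by XRN1. EDC3 and EDC4 are enhancers of decapping: EDC3 binds DCP2 and the helicase DDX6, and EDC4 is a large scaffold that joins DCP2 to its activator DCP1. All of them gather in P-bodies, cytoplasmic granules of repressed mRNA. APOBEC1 converts C to U in RNA, and its natural substrate is the apolipoprotein B mRNA in the intestine. In the STAMP assay, which this design uses, mRNAs that come near a fused protein acquire C-to-U edits, and unfused APOBEC1 shows what the enzyme edits on its own.

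The 3 fusion libraries held 6259071 to 6572041 reads and the 3 control libraries 8966143 to 9363626, over the 10723 genes that each of the 3 fusion files lists. The control libraries list 1274 further genes in other files, with no edited read in any of them. The mRNA of each tagged protein checked the labels. DCP2 stood at 543 reads per 1000000 reads (RPM) in APOBEC-DCP2 and at 93.1 to 127 in the other 5 libraries. EDC3 stood at 283 RPM in APOBEC-EDC3 and at 66.1 to 83.0 elsewhere, and EDC4 at 211 RPM in APOBEC1-EDC4 and at 101 to 128 elsewhere. Of 16 epithelial marker genes, 8 are listed in the files, and their summed level was 1103 to 2433 RPM in the fusions and 3752 to 3819 in the controls. APOBEC-DCP2 was the lowest: KRT8, an epithelial keratin, was at 518 RPM there against 1839 to 1860 in the controls, CDH1 (E-cadherin) at 23.3 against 197 to 202, and the epithelial transcription factor ELF3 at 7.98 against 64.1 to 72.2. In APOBEC1-EDC4, CDH1 was at 220 RPM, above every control, while the other listed epithelial markers were lower in every fusion than in every control. Of 15 HEK293T markers, 5 are listed, with sums of 125 to 133 RPM in the fusions and 86.6 to 93.5 in the controls. PAX2 and ZIC2 were higher in every fusion than in every control, whereas HOXA10, TUBB3 and VIM overlapped between the groups. The part of these marker differences in the editing results was not tested. The 3 fusion libraries, together with APOBEC1-LSM14A, also stood apart in histone reads, with 996 to 1487 RPM over 8 histone genes against 112 to 133 in the controls and 154 to 263 in the C-terminal fusions. The CNOT10 and CNOT1-R fusions had 115 to 194 RPM over the 7 of these genes listed for them. In every comparison with controls, C-terminal fusions or CNOT fusions, the fused proteins and whatever else sets the arm apart therefore cannot be told apart.

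Every fusion library had a higher share of edited reads than every control library. The library-wide share of edited reads was 0.493% in APOBEC-DCP2, 0.603% in APOBEC-EDC3 and 0.488% in APOBEC1-EDC4, and 0.329%, 0.324% and 0.331% in the controls. The mean was 0.528% ± 0.0647 (SD, n = 3) against 0.328% ± 0.00347 (n = 3), a ratio of 1.61. The exact two-sided permutation test gave p = 0.1, the smallest value that 3 libraries against 3 allow. APOBEC-EDC3 was the highest of the arm, at 1.84 times the control mean, whereas APOBEC-DCP2 and APOBEC1-EDC4 were both near 1.5 times. The 10 other fusion libraries compared here did not reach these shares: APOBEC1-LSM14A had 0.305%, and the 6 libraries with APOBEC1 on the C-terminal side of the same proteins had 0.180% to 0.339%, and the CNOT10 and CNOT1-R fusions 0.207% to 0.228%. The remaining fusions of the series were not analysed here.

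**Figure D1:**
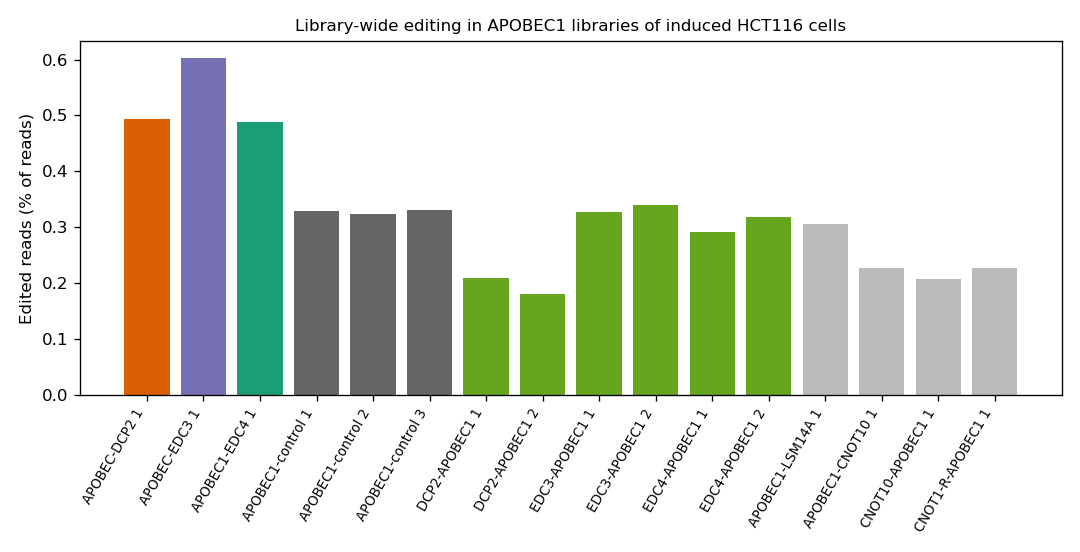
Library-wide editing, as the percentage of reads that were edited (vertical axis), in the 3 decapping-complex fusions (coloured bars on the left), the 3 control libraries (dark grey), the C-terminal fusions (green) and the other single-library APOBEC1 fusions (light grey). The 3 fusions stand at 0.488% to 0.603%, above all other bars.

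Gene by gene, the fusions mostly gained editing. The test covered 6355 genes, those reaching 20 reads in each of the 6 libraries and 10 edited reads in their sum. Of these, 230 had higher scores in the arm (3.62% of those tested) and 13 had lower scores (0.205%) at an adjusted p below 0.05. The median log2 fold change over all tested genes was 0.52. Of the 230 genes, 212 had edited reads in all 3 fusions, 15 in 2 and 3 in 1, and 38 had no edited read in any control. The genes called higher were well covered, with a median of 1306 reads per library against 599 over all tested genes. Their median score was 1.05% in the fusions and 0.0887% in the controls. In 206 of them every fusion stood above every control, an order that 1198 of all tested genes (18.9%) showed. The count rested on single libraries: 8, 9 or 14 genes were called higher without control library 1, 2 or 3, 54 without APOBEC-EDC3, 121 without APOBEC-DCP2 and 480 without APOBEC1-EDC4. DESeq2 called 57 genes higher, 56 of them among the 230, and limma on log2(score + 0.1) called 1.

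In what follows, the 3 scores of a gene stand in the order APOBEC-DCP2, APOBEC-EDC3, APOBEC1-EDC4, and the control scores in the order of their library numbers. Gene positions are from RefSeq on GRCh38.p14.

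Genes of the early secretory pathway were among the rises. SURF4 (chr9:133361464-133377949), a cargo receptor that carries secreted proteins out of the endoplasmic reticulum, had scores of 6.27%, 1.12% and 5.17% in the fusions and 0.140%, 0.207% and 0% in the controls. All fusions were above all controls, with APOBEC-EDC3 the lowest of the arm, and the log2 fold change was 5.12 ± 1.07 (SE; adjusted p = 0.0166). TRAM1, a membrane protein of the translocation channel, had 2.40%, 1.06% and 1.34% against 0%, 0.115% and 0% (adjusted p = 0.00319). COPA, a subunit of the coat of retrograde transport vesicles, was edited in every fusion, at 0.579%, 0.564% and 0.329%, and had no edited read in the controls. Its pooled score in the arm was at least 15.8-fold higher than the limit that 3 edited reads over the control group would set (adjusted p = 0.00319).

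Members of the p24 family, which select cargo for transport vesicles, moved in the same direction. TMED5 had 0.856%, 0.997% and 1.69% in the fusions and 0% in every control, at least 14.6-fold higher (adjusted p = 0.00338). TMED10 had 0.886%, 1.36% and 0.945% against 0.143%, 0.117% and 0.0376% (adjusted p = 0.00486). TMED7 reached 10.6% in APOBEC-EDC3, with 1.57% and 4.59% in the other fusions and 0.772% to 0.844% in the controls (adjusted p = 0.0284). In all 3 genes every fusion stood above every control. The TMED7 score was highest in APOBEC-EDC3, but TMED7 was not called different between APOBEC-EDC3 and APOBEC-DCP2. RAB11A, a GTPase of recycling endosomes, had 0.851%, 0.992% and 0.837% against 0.0524% to 0.0547% (adjusted p = 0.00366).

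CCND1 (chr11:69641156-69654474), which encodes cyclin D1, a driver of the G1 phase, had 0.833%, 1.98% and 0.657% in the fusions and no edited read in the controls. The arm was at least 86.4-fold higher (adjusted p = 0.000632), and CCND1 was also called in 11 of 13 alternative analyses. EREG, an EGF-receptor ligand, had 2.33% and 1.27% in APOBEC-DCP2 and APOBEC-EDC3 and 0% in APOBEC1-EDC4 and in every control (adjusted p = 0.000632). HMGA2, a chromatin protein of embryonic and tumour cells, had 0.992%, 0.795% and 1.59% against 0.0417%, 0.0411% and 0.129% (adjusted p = 0.00366). TRIB1, a pseudokinase that promotes protein degradation, had 1.15%, 0.293% and 0.780% against 0% in every control (adjusted p = 0.00338) and was called in 11 of 13 alternatives. The 7 genes called higher in at least 10 alternatives were CCND1, TRIB1, COPA, EREG, RAB11A, TMED5 and TRAM1, and these were picked out after their values were seen.

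The largest fitted rise among genes of at least 2% mean score came from 1 construct. BLVRB (chr19:40447768-40465745), a biliverdin reductase, had a score of 23.5% in APOBEC1-EDC4, from 55 edited reads of 234, against 0.389% and 0.314% in APOBEC-DCP2 and APOBEC-EDC3, 1 edited read each. No control had an edited read, and the adjusted p was 0.0166. CYP24A1, the enzyme that inactivates vitamin D, had 3.22%, 0.599% and 5.86% against at most 0.11% in a control (adjusted p = 0.00397). COL6A2, a collagen VI chain, had 3.47%, 0.662% and 2.09% against at most 0.151% (adjusted p = 0.00486). In both genes APOBEC-EDC3 was the lowest of the arm, although its library had the most edited reads.

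HNRNPH3, an RNA-binding protein, showed the opposite order, at 0.709%, 4.91% and 0.497% against 0.0967% to 0.104% in the controls (adjusted p = 0.0108). The genes TBC1D14, SERPINB9, HSPA13, VGLL4 and PRDM2, named by the same rule, had 1.11% or more in every fusion and 0.676% or less in every control. SNAP47 and ADORA2B had at most 0.528% in a control and at least 0.704% in a fusion. ADORA2B, an adenosine receptor, also had 5.04% in APOBEC1-LSM14A and 5.25% in APOBEC1-CNOT10, so that its rise over the control was not particular to the 3 proteins.

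The falls were few, and 7 of the 13 genes had no edited read in any fusion. In 12 of them every fusion stood below every control, an order that 3.75% of all tested genes showed. EIF4EBP1, the repressor that holds the cap-binding protein eIF4E, had scores of 9.58%, 11.6% and 10.6% in the controls and 0% in every fusion. The arm was at least 43.1-fold lower (adjusted p = 0.00319), and this call held in all 13 alternatives. ECI2, an enzyme of fatty acid oxidation, had 7.31% to 8.19% in the controls and 0.292% to 0.504% in the fusions (log2 fold change -4.25 ± 0.76, adjusted p = 0.00609). FRG1, a nuclear RNA-binding protein, had 6.83% to 12.1% in the controls and 0%, 0.680% and 0% in the fusions (adjusted p = 0.00486). The transcription factor ATF1 had 2.37% to 6.71% in the controls and 0% in every fusion (adjusted p = 0.0151), and the condensin subunit NCAPH2 had 3.47% to 4.25% against 0%, 0.321% and 1.17% (adjusted p = 0.0311).

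These genes were also low in fusions of other proteins. EIF4EBP1 was at most 0.333% in the 6 C-terminal libraries and at most 0.606% in the 4 other single-library fusions. ECI2 was at most 0.348% and FRG1 at most 0.391% in those 10 libraries, and RPL4, a ribosomal protein gene at 0.227% to 0.319% in the controls, was at 0% in all 10 as in the arm. High scores of these 4 genes were thus seen in the control libraries alone among the 16 libraries compared. ATF1 was not of this kind, with up to 2.51% in a C-terminal library. ATP5F1C, a subunit of the mitochondrial ATP synthase, had 0.383% to 0.758% in the controls, 0% in the arm (adjusted p = 0.0160) and 6.36% in APOBEC1-LSM14A.

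**Figure D2:**
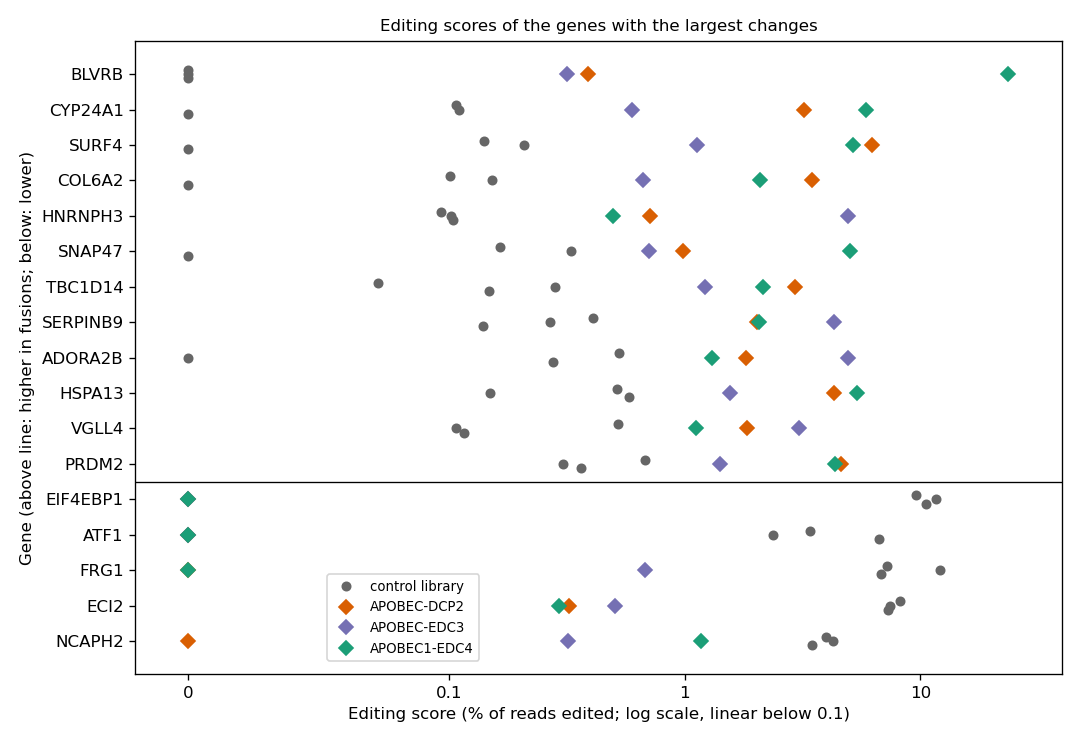
Editing scores (horizontal axis, percent of reads edited, log scale that is linear below 0.1) of the 12 largest rises (above the line) and the 5 largest falls (below it) among called genes with a mean score of at least 2% in 1 group and no overlap between groups. Diamonds are the 3 fusion libraries and grey circles the 3 control libraries: BLVRB spreads from 0.314% to 23.5%, and EIF4EBP1 and ATF1 are at 0% in every fusion.

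The lists of genes were chosen with knowledge of these data, and their counts are set beside the 3.62% of all tested genes called higher and the overall median log2 fold change of 0.52. Among immediate early and AU-rich mRNAs, 6 of 21 tested genes rose and 0 fell, with a median of 1.98. The 6 were EREG, EGR1, DUSP4, KLF6, PLAUR and ZFP36L1. EGR1, a growth-induced transcription factor, was edited only in APOBEC1-EDC4, at 0.503%. KLF6, another such factor, had 0.794%, 1.13% and 1.31% against at most 0.209% (adjusted p = 0.0278). In the secretory and p24 list, 5 of 19 rose and 0 fell, with a median of 1.51: SURF4, TMED5, TMED7, TMED10 and the lectin receptor LMAN1. The pooled edited share of this list was 1.33%, 1.00% and 1.12% in the fusions and at most 0.2503% in a control. EDC3-APOBEC1 (0.453% and 0.495%) and APOBEC1-LSM14A (0.306%) were also above every control. EDC4-APOBEC1 was within the control range, and DCP2-APOBEC1 and the CNOT fusions, at 0.0427% to 0.168%, were below it. In the cholesterol synthesis list, 3 of 13 rose (HMGCS1, MSMO1 and INSIG1), 0 fell, and all 13 had a positive fold change, with a median of 2.16. MSMO1, a sterol demethylase, had 0.688%, 1.68% and 0.147% against at most 0.0358% (adjusted p = 0.0160). Tubulin and actin genes had the highest median, 2.63, with 2 of 12 called higher, ACTB and ACTG1. ACTB, the cytoplasmic beta-actin, had 0.434%, 0.505% and 0%, while the controls had no edited read, so that APOBEC1-EDC4 was at the control level. Pooled over the tubulin and actin list, the edited share was 0.296%, 0.397% and 0.0215% in the fusions and 0.0163% to 0.0537% in the controls. It was also 0.206% to 0.243% in the C-terminal libraries and 0.185% to 0.328% in the other single-library fusions, above every control.

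In the list of let-7 and miR-17 targets, 4 of 19 tested genes rose and 0 fell, with a median of 0.94. The 4 were HMGA1, HMGA2, CCND1 and NRAS, and HMGA1 was edited in APOBEC1-EDC4 alone. NRAS, a signalling GTPase, had 0.464%, 1.60% and 1.80% against 0.416%, 0.129% and 0.0646% (adjusted p = 0.0443). Pooled over this list, the edited share was 0.548%, 0.694% and 1.29% in the fusions and 0.116% to 0.159% in the controls. It was also above every control in EDC3-APOBEC1 (0.293% and 0.319%) and EDC4-APOBEC1 (0.335% and 0.416%). APOBEC1-LSM14A, CNOT1-R-APOBEC1 and CNOT10-APOBEC1, at 0.185% to 0.281%, were above every control too. DCP2-APOBEC1 (0.124% or less) and APOBEC1-CNOT10 were not. The mature sequences of both miRNAs, from RefSeq on GRCh38.p14, are shown because their targets make up this list, with the seed (bases 2 to 8) in capitals. No miRNA level was measured in these libraries.
hsa-let-7a-5p: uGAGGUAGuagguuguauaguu
hsa-miR-17-5p: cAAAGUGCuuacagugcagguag

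Of 27 P-body and decapping genes, 17 were tested, 1 rose and 0 fell, with a median log2 fold change of 0.76 beside 0.52 over all tested genes. In 7 of the 17 every fusion stood above every control, an order shown by 18.9% of all tested genes. MEX3D, an RNA-binding ubiquitin ligase, was the one called, at 1.25%, 1.60% and 0.856% against at most 0.276% (adjusted p = 0.0438). LSM14A, a DDX6 partner, had 0.537%, 0.645% and 0.945% against 0.160% to 0.270% (adjusted p = 0.0761), and DDX6, the P-body helicase, had 0.138% to 0.183% against at most 0.0822% (adjusted p = 0.191). XRN1, the exonuclease that follows decapping, had 0.567%, 1.25% and 1.19% against 0.789% to 0.922% (adjusted p = 0.868). Each tagged mRNA had its lowest score of the arm in its own library. None of them was called for the arm or between constructs, and the EDC3 and EDC4 scores rested on few edited reads. DCP2 had 0.353% in APOBEC-DCP2 and 1.30% and 1.03% in the other fusions, with 0.839% to 1.01% in the controls. EDC3 had 0.107% in APOBEC-EDC3 and 0.483% and 0.596% in the others, and EDC4 had 0.152% in APOBEC1-EDC4 and 0.786% and 0.356% in the others. These are the libraries in which each of these mRNAs was most abundant in reads, and the files do not separate construct reads from those of the endogenous gene.

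The remaining lists had at most 3 called genes each. Of 23 CCR4-NOT and PAN deadenylation genes 2 rose (PUM2 and ZFP36L1; median 0.83), as did 2 of 11 known endogenous NMD target mRNAs (SRSF2 and RBM3; median 1.08). Of 49 chromatin factors, 1 rose (CHD2) and 1 fell (CREBBP), with a median of 0.14. Cytosolic ribosomal protein genes had the lowest median of the lists with at least 10 tested genes, -0.34. Of the 10, 3 were called lower (RPL4, RPL8 and RPS15) and 0 higher. Their pooled edited share was 0.130% to 0.228% in the controls and 0.0163% to 0.0584% in the arm. It was also low in the C-terminal libraries (0.0192% to 0.0412%) and in the other single-library fusions (0.0168% to 0.0470%). RPS15 had 0.586% to 0.713% in the controls and 0% in every fusion (adjusted p = 0.00319). Of 25 translation factor genes, 1 fell, EIF4EBP1, and 0 rose. No gene was called among 14 miRNA silencing factors, 12 nonsense-mediated decay factors, 17 p53 targets, 24 KRAB zinc finger genes and 6 selenoprotein genes, although all 6 of the last had a positive fold change, with a median of 1.51. In further lists 1 gene rose each: NDUFV1 of 12 oxidative phosphorylation genes, where ATP5F1C fell, PSAT1 of 15 unfolded protein response genes and IRF7 of 11 interferon-stimulated genes.

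**Figure D3:**
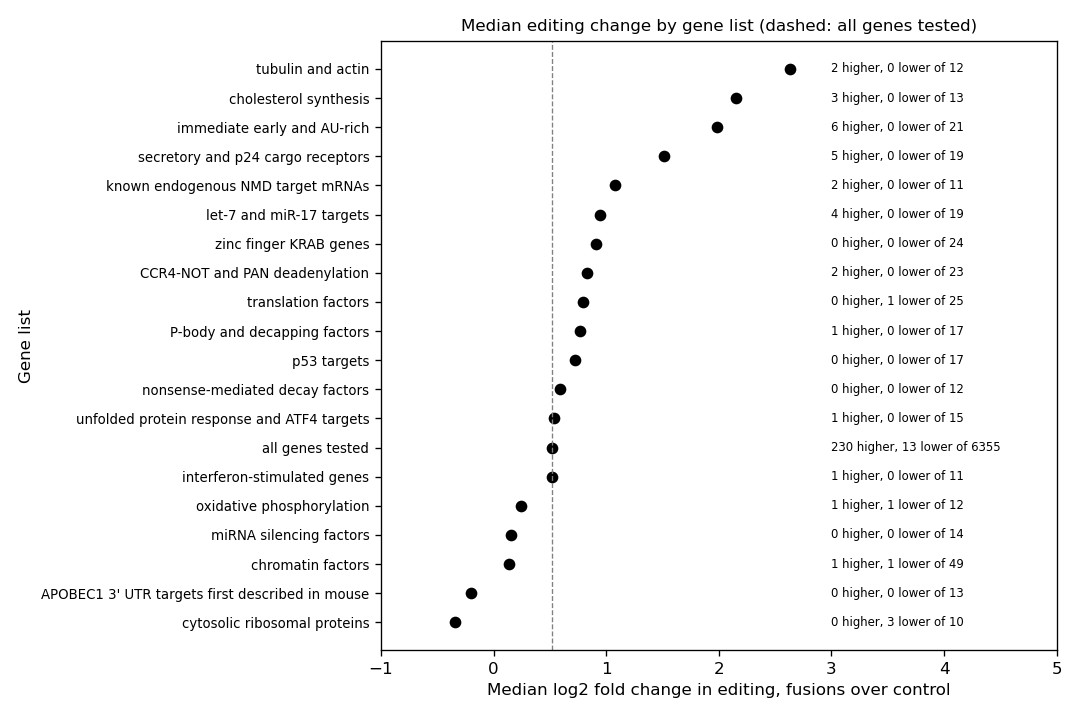
Median log2 fold change in editing, fusions over control (horizontal axis), for each gene list with at least 10 tested genes, with the counts of genes called at the right. The dashed line marks the median over all 6355 tested genes, 0.52: tubulin and actin genes stand highest at 2.63 and cytosolic ribosomal protein genes lowest at -0.34.

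To ask which genes gained more than the library as a whole, the library-wide share of each library was entered into the fit. The median log2 fold change became -0.15, and 32 genes were higher (0.504%) and 20 lower (0.315%). CCND1 and EREG had the smallest adjusted p among the named rises (0.000672 each), and SURF4, BLVRB, CYP24A1, COL6A2, HNRNPH3, TBC1D14 and SERPINB9 were the named rises of at least 2% mean score. The medians of the chromatin, oxidative phosphorylation, miRNA silencing and interferon lists turned negative on this scale (-0.52 to -0.21), below the -0.15 of all tested genes. Those of the nonsense-mediated decay factor and unfolded protein response lists also turned negative, but stayed above that value (-0.09 and -0.06). Of the list genes called higher before, SURF4, TMED5, TMED10, HMGA2, CCND1, EREG, MSMO1 and ACTB were also called on this scale. EIF4EBP1, ATF1, FRG1, ECI2 and NCAPH2 remained lower. SNX9, a sorting nexin, joined them on this scale, at 0.460%, 1.2% and 0.635% against 2.78% to 3.29% (adjusted p = 0.0333). Without control library 1, 2 or 3 the number of genes higher was 2, 3 and 3, without APOBEC-DCP2 it was 2, without APOBEC-EDC3 17 and without APOBEC1-EDC4 111.

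The scores of some genes differed between constructs. With 1 library per construct, their differences could only be tested against the spread of the 3 control libraries, in a fit that held the library-wide share constant and left 2 residual degrees of freedom, so that the spread within a construct did not enter. APOBEC1-EDC4 was lower than APOBEC-DCP2 at 4 of 6355 genes (0.0629%) and higher at 0, lower than APOBEC-EDC3 at 6 (0.0944%) and higher at 1 (0.0157%). APOBEC-DCP2 and APOBEC-EDC3 differed at 0 genes by edgeR's quasi-likelihood test, with 391 at an unadjusted p below 0.05. Taking the spread also from the C-terminal libraries gave 7 genes higher and 4 lower in APOBEC-DCP2 for that pair. No call of these contrasts was left once a control library was dropped, which also left fewer than 2 residual degrees of freedom.

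B2M (chr15:44711517-44718145), the light chain of MHC class I, showed the pattern. Its scores were 3.26% (95% exact interval 2.51% to 4.16%) in APOBEC-DCP2, 5.38% (4.43% to 6.45%) in APOBEC-EDC3 and 0.288% (0.138% to 0.529%) in APOBEC1-EDC4, and 3.37% to 3.80% in the controls. APOBEC1-EDC4 lay far below the controls, and APOBEC-DCP2 just below the lowest of them. On the log2 scale of the fit, APOBEC-DCP2 exceeded APOBEC1-EDC4 by 3.47 and APOBEC-EDC3 exceeded it by 3.90. All such intervals cover counting error only.

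MYL12B, a myosin regulatory light chain, was at 0% in APOBEC1-EDC4, where 0 edited reads of 2123 allow up to 0.141%. It had 1.67% and 2.30% in the other fusions and 2.17% to 2.56% in the controls, and both differences passed (adjusted p = 0.0315 and 0.0221). APP, the amyloid precursor protein, had 2.21%, 1.83% and 0.495% against 1.91% to 1.97%, and the difference from APOBEC-DCP2 passed (adjusted p = 0.0315). ITGB1, integrin beta 1, had 0.814%, 0.535% and 0% (0 of 6092 reads), with 0.322% to 0.371% in the controls, and it too differed from APOBEC-DCP2 (adjusted p = 0.0315). In all 4 genes APOBEC1-EDC4 lay below both other fusions and below every control.

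Against APOBEC-EDC3, further genes were low in APOBEC1-EDC4 that were raised over the control in APOBEC-EDC3. TPP1, a lysosomal peptidase, had 2.80%, 7.53% and 0%, with 0.557% to 1.19% in the controls (adjusted p = 0.0384). APLP2, a relative of APP, had 1.2%, 2.65% and 0.0487% against 0.330% to 0.541% (adjusted p = 0.0225). ACTR2, a subunit of the actin-nucleating Arp2/3 complex, had 0.913%, 3.93% and 0.111% against 0.130% to 0.264% (adjusted p = 0.0304), and TMBIM6, a calcium channel of the endoplasmic reticulum, had 0.725%, 1.15% and 0.0171% against 0.421% to 0.533% (adjusted p = 0.0304).

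HMGA1 (chr6:34236873-34246231), a DNA-bending chromatin protein, went the other way. It had 94 edited reads of 2347 in APOBEC1-EDC4, 4.01% (95% exact interval 3.25% to 4.88%), and none of 3938 and 8183 reads in APOBEC-DCP2 and APOBEC-EDC3. No control had an edited read. The difference from APOBEC-EDC3 passed (adjusted p = 0.0304) and that from APOBEC-DCP2 did not (adjusted p = 0.0605), although both libraries were at 0.

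The mRNAs first described in mouse as 3′ UTR substrates of APOBEC1 were pooled. Over the 13 tested members, which include B2M and APP, the edited share was 1.91% in APOBEC-DCP2, 2.61% in APOBEC-EDC3 and 0.469% in APOBEC1-EDC4, and 1.75% to 1.81% in the controls. Without B2M and APP, a choice made after the data were seen, the other 11 gave 1.32%, 2.09% and 0.533%, and 0.934% to 1.20% in the controls, so that APOBEC1-EDC4 remained the lowest of the 6 libraries. The 3 constructs together gave 0 calls in this list, with a median log2 fold change of -0.20. A low share was not particular to APOBEC1-EDC4: it was 0.0831% and 0.123% in the DCP2-APOBEC1 libraries and 0.117% in APOBEC1-LSM14A, but 1.69% to 1.81% in EDC3-APOBEC1 and 1.05% to 1.06% in EDC4-APOBEC1. For DCP2 and EDC4 the share therefore differed between the N-terminal and the C-terminal construct, in opposite directions.

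**Figure D4:**
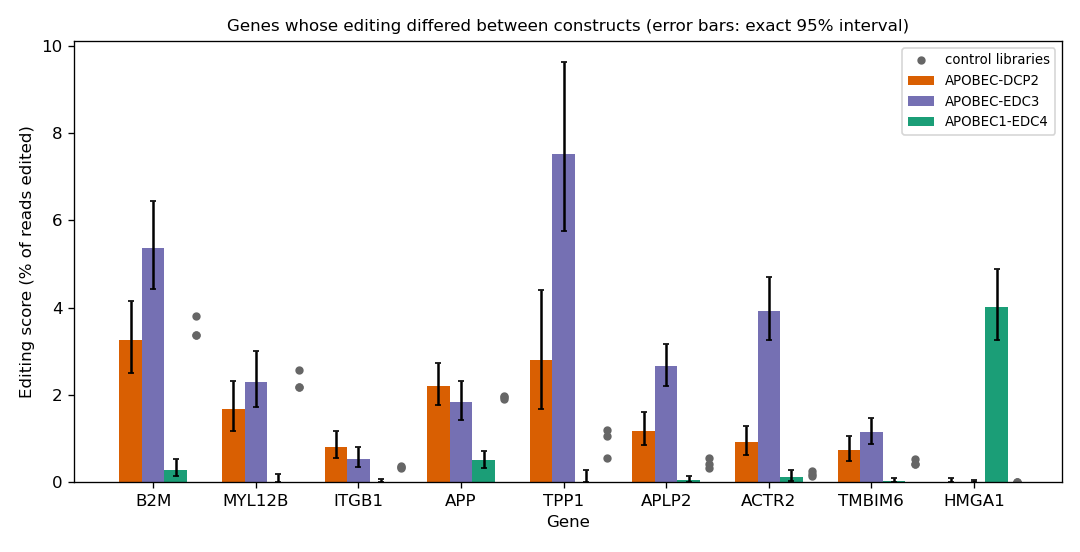
Editing scores (vertical axis, percent of reads edited) of the 9 genes whose scores differed between constructs, with exact 95% intervals for counting error. Grey circles are the control libraries: APOBEC1-EDC4 is at 0.495% or less in 8 genes and at 4.01% in HMGA1, where the other constructs are at 0%.

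Set singly against the controls in the same 4-group fit, APOBEC-EDC3 gave 201 genes higher (3.16%), APOBEC-DCP2 13 (0.205%) and APOBEC1-EDC4 16 (0.252%), and the genes lower numbered 5 (0.0787%), 3 (0.0472%) and 8 (0.126%). Of the 230 genes called for the whole arm, 128 had their highest score in APOBEC-EDC3, 50 in APOBEC-DCP2 and 52 in APOBEC1-EDC4. With the library-wide share in the offset, an alternative added after the data were seen, the genes higher were 8 for APOBEC-DCP2, 5 for APOBEC-EDC3 and 5 for APOBEC1-EDC4, so that the lead of APOBEC-EDC3 in the count went with its library-wide share. No call was left for any construct without control library 1, 2 or 3, where the fit had fewer than 2 residual degrees of freedom.

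The leading genes of each construct against the controls overlapped in part. Those of APOBEC-DCP2 were THRAP3, KHDRBS1, TRAM1 and SURF4. Apart from HMGA1, the genes named in this paragraph were not called different between constructs. In APOBEC-DCP2, THRAP3, a transcription and splicing cofactor, had 66 edited reads of 2285, 2.89%, against 0.103% and 0% in the other fusions and 0% in the controls (adjusted p = 0.00949). KHDRBS1, the RNA-binding protein Sam68, had 2.41% in APOBEC-DCP2 and 2.17% in APOBEC1-EDC4 (adjusted p = 0.0120 and 0.0182) and 0.161% in APOBEC-EDC3, with none in the controls. In APOBEC-EDC3 the leading genes were TPD52, TVP23B, HNRNPH3 and SLC17A5, at 2.19% to 4.91%. TVP23B, a Golgi membrane protein, had 3.97% there, from 10 edited reads of 252 (adjusted p = 0.0319), against 0.400% and 1.27% in the other fusions. In APOBEC1-EDC4 they were HMGA1, BLVRB, KHDRBS1 and CYP24A1. EIF4EBP1 and ECI2 were called lower in each of the 3 constructs.

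Across genes, the score profiles of the 3 constructs were less alike than those of the controls. Over 6342 genes covered in all 16 libraries, Spearman's rho between fusion libraries was 0.196 to 0.288, and between control libraries 0.521 to 0.533. These are descriptions across genes, which are not independent replicates, and the libraries differ in depth. APOBEC1-EDC4 had a rho of 0.362 to 0.390 with the EDC4-APOBEC1 libraries and of 0.359 to 0.376 with the EDC3-APOBEC1 libraries. APOBEC-DCP2 had 0.135 to 0.182 with the DCP2-APOBEC1 libraries and 0.189 to 0.222 with the controls, so that its profile was no closer to the C-terminal fusion of the same protein. Low values were not particular to the 3 constructs: APOBEC1-LSM14A had 0.242 to 0.261 with the controls and 0.176 to 0.290 with the C-terminal libraries.

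The side of the fusion was compared across the 3 proteins, with protein as a term and the library-wide share in the offset. Of 7662 genes, 70 were higher in the N-terminal fusions (0.914%) and 15 lower (0.196%). BLVRB was higher, with 0% in all 6 C-terminal libraries (adjusted p = 3.81e-05), but nearly all of its N-terminal edited reads came from the APOBEC1-EDC4 library. COL6A2 had 0.0308% to 0.578% in the C-terminal libraries against 0.662% to 3.47% (log2 difference 2.38 ± 0.61, adjusted p = 0.0489). TSC22D3, a glucocorticoid-induced transcription regulator, had 0% in the N-terminal and 1.76% to 4.29% in the C-terminal fusions (adjusted p = 0.0159). EHBP1, an endocytic adaptor, had 0.566% to 1.04% against 1.23% to 3.86% (adjusted p = 0.0471). These were all the genes of at least 2% mean score whose groups did not overlap. SURF4 did not pass here (adjusted p = 0.0984), with up to 1.14% in EDC3-APOBEC1. The count of genes higher was 22 without APOBEC-EDC3, 30 without APOBEC-DCP2 and 87 without APOBEC1-EDC4, and 26 to 54 without any one C-terminal library.

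Against the 4 other single-library APOBEC1 fusions, of LSM14A, CNOT10 (both sides) and CNOT1-R, 130 of 6666 genes were higher in the arm (1.95%) and 28 lower (0.420%), again relative to library-wide editing. SURF4 was at most 0.251% in those libraries (log2 difference 5.56 ± 1.14, adjusted p = 0.00804). DSG2, a desmosomal cadherin, had 3.87%, 0.591% and 2.33% in the arm and at most 0.0919% in the others (adjusted p = 0.00178). PRKAR1A, a regulatory subunit of protein kinase A, had 2.79%, 5.38% and 1.21% against at most 0.115% (adjusted p = 0.00200), while the controls had 0.917% to 1.42%. SCOC, a Golgi-associated autophagy protein, had 3.81%, 5.32% and 3.09% against at most 0.15% (adjusted p = 0.00242), and the controls had 0.202% to 1.11%. Lower in the arm were MAP3K12, a neuronal kinase, at 0%, 0% and 0.5% against 1.14% to 4.99% (adjusted p = 0.00768), and KCNAB2, a potassium channel subunit, at 0%, 0.478% and 0.976% against 3.12% to 7.87% (adjusted p = 0.00666).

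That comparison depended on its libraries. The number of genes higher was 25, 33 and 178 without APOBEC-EDC3, APOBEC-DCP2 and APOBEC1-EDC4, and 48, 185, 32 and 40 without APOBEC1-CNOT10, APOBEC1-LSM14A, CNOT10-APOBEC1 and CNOT1-R-APOBEC1. Against the APOBEC1-LSM14A library alone, whose file lists the same 10723 genes, edgeR's quasi-likelihood test called 0 genes higher and 1 lower.

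Read levels differed between the fusion and control libraries in genes unrelated to the tags. Of 10423 genes, 1184 were higher in reads in the arm (11.4%) and 937 lower (8.99%). Replication-dependent histone genes, whose mRNAs normally lack a poly(A) tail, made up 7 of the 8 largest rises. H2BC21 had 302, 293 and 195 RPM in the fusions and 11.0 to 12.5 in the controls (log2 fold change 4.52 ± 0.25, adjusted p = 0.000986). H2BC15 had 99.4, 100 and 54.2 RPM against 2.78 to 3.35 (adjusted p = 0.00191). H3C10 had 150, 142 and 108 RPM against 7.05 to 8.19 (adjusted p = 0.000986).

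The same shift was present in a library of another protein. APOBEC1-LSM14A had 233 RPM of H2BC21, 60.6 of H2BC15 and 105 of H3C10, within or near the range of the arm, whereas the C-terminal DCP2 library 1 had 8.38, 3.85 and 7.42. The 4 files of these single libraries list the same 10723 genes, and the labels give no batch or date. Genes lower in reads included SAT1, the polyamine acetyltransferase, at 38.9, 187 and 92.5 RPM against 663 to 703 (adjusted p = 0.0157), and DDIT4, a stress-induced inhibitor of mTOR signalling, at 26.3, 24.6 and 29.4 RPM against 133 to 139 (adjusted p = 0.000986). APOBEC1-LSM14A had 186 RPM of SAT1 and 30.6 of DDIT4. Leaving out control library 1, 2 or 3 reduced the genes higher to 87, 167 and 86.

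**Figure D5:**
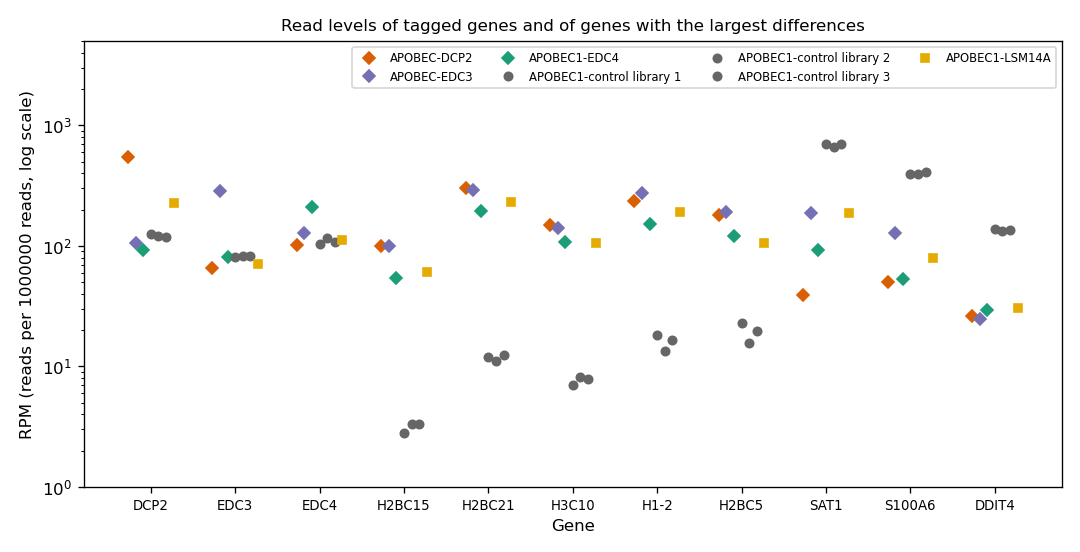
Read levels (vertical axis, RPM, log scale) of the 3 tagged genes, of 5 histone genes and of 3 genes lower in the arm. Diamonds are the 3 fusions, grey circles the controls and squares APOBEC1-LSM14A: each tagged gene is highest in its own fusion, and for the histone genes the squares lie with the diamonds.

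Few genes that gained editing also gained reads. Of the 230 genes called higher in editing, 5 were called higher and 37 lower in reads (2.17% and 16.1%), beside 13.8% and 7.62% of all 6355 genes tested for editing. Reads are the denominator of the score, so that calls in editing and calls in reads are not independent. Whether the change in reads bears on the scores was not tested.

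Translation of these mRNAs was available from the authors' deposited table, with 1 value per gene for wild-type and 1 for DDX6-knockout HCT116 cells. The 230 genes had a median log2 translation efficiency of -0.48 in wild-type cells, beside -0.37 over 6353 tested genes with a value. Their median difference between DDX6-knockout and wild-type cells was 0.59 (quartiles 0.26 and 0.95), beside 0.43 (0.18 and 0.75) over all tested genes. The quartile ranges overlapped, and no test was made. The 13 genes called lower had a median of 0.25 in wild-type cells and a median difference of 0.02.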

How the data were processed

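Counts of reads and of edited reads per gene were deposited, together with the authors' score, a fraction that equals edited reads over reads to within 3.33e-08. Log2 translation efficiency was deposited by the authors as 1 value per genotype. The submitters' processing notes name STAR 2.7.9a, featureCounts 2.0.1, cutadapt 1.18 and FastQC 0.11.9, with build hg38. How edited reads were called and filtered is not given in the sources used. In the table of translation efficiency, 2 columns, for HEK293T, were left out.

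The 3 fusion files were merged by gene name with the control columns. Of 10723 genes, 300 were left out for fewer than 20 reads in a library and 4068 for fewer than 10 edited reads over the 6 libraries. The 6355 tested genes held 73.9% of reads. Edited counts were tested with edgeR 4.0.16 (quasi-likelihood, R 4.3.3) with log reads as offset, and Benjamini-Hochberg adjustment over all genes tested, threshold 0.05. Relative, terminus, other-fusion and construct contrasts added the library-wide share to the offset. Reads used TMM factors. RPM is per 1000000 reads of the 10723 genes. DESeq2 1.42.0 and limma 3.58.1 were alternatives. The fits were also run on simulated data of fixed dispersion, where the arm contrasts gave all 3 fusions the same change, unlike the real arm. Folds against a group at 0 use a floor of 3 edited reads over that group. Each SE given with a log2 value is that value over the square root of the F statistic of its test.

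Pairs of control libraries had chi-square values of 1.06 to 1.39 per degree of freedom, above sampling noise. The EDC3-APOBEC1 pair had 0.994 in reads, within that noise, but 1.18 in edited reads, and was kept as separate libraries. Named genes were the largest changes past the threshold with at least 2% mean score and no overlap (12 per direction for the arm against control, 8 in the relative, terminus and other-fusion comparisons and, from 20 RPM, for reads), the 4 largest per direction for each construct, the P-body list, and the extreme members of each list. Other called list members, genes called in at least 10 alternatives, and genes differing between constructs below 2% were named after their values were seen. The members and lists were chosen with earlier results of these data known. Summaries and plots were made in Python 3.11.15 (scipy 1.17.1, numpy 2.4.6, matplotlib 3.10.9, pandas 2.3.3).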

Additional observations from a re-analysis of the deposited data

Results flagged for a closer look

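The following differences between constructs were called at an adjusted p below 0.05 against the spread of the 3 control libraries, with 2 residual degrees of freedom, and none was called once a control library was left out. On the log2 scale of the fit, APOBEC-DCP2 exceeded APOBEC1-EDC4 by 3.47 for B2M, 2.14 for APP, 8.57 for ITGB1 and 8.27 for MYL12B. APOBEC-EDC3 exceeded APOBEC1-EDC4 by 3.90 for B2M, 4.80 for ACTR2, 5.40 for APLP2, 5.59 for TMBIM6, 8.44 for MYL12B and 8.70 for TPP1, and HMGA1 was at -11.21 in that contrast. Where 1 construct had no edited read (ITGB1, MYL12B, TPP1 and HMGA1) the fitted value depends on the prior count and is no bound. Each construct had 1 library, so that a construct and its library cannot be told apart.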

How the results depend on the processing

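Counts are genes higher and lower. For the arm against control (230 and 13), DESeq2 gave 57 and 5, limma on log2(score + 0.1) 1 and 5 and on log2(score + 0.5) 0 and 4, no edited-read minimum 499 and 18, and the library-wide share in the offset 32 and 20; leaving out 1 library gave 8 to 480 and 4 to 18. Relative to library-wide editing (32 and 20), DESeq2 gave 18 and 12, limma 0 and 11, no edited-read minimum 133 and 40, and TMM factors 57 and 19; leaving out 1 library gave 2 to 111 and 4 to 34. With the spread also taken from C-terminal libraries, DCP2, EDC3 and EDC4 against control gave 205 and 16, 549 and 13, and 143 and 33; with the library-wide share, 8, 5 and 5 genes were higher; without any 1 control library all were 0 (0 to 0). Between constructs that wider spread gave 7 and 4 (DCP2 minus EDC3), 27 and 5 (DCP2 minus EDC4) and 56 and 12 (EDC3 minus EDC4). Without the share in the offset the last pairs gave 6 and 1, and 14 and 2; without any 1 control library all were 0. For the termini (70 and 15), no share gave 789 and 6, no protein term 19 and 2, and the EDC3-APOBEC1 pair summed 39 and 8; leaving out 1 library gave 22 to 87 and 6 to 15. Against the other fusions (130 and 28), no share gave 861 and 11, and leaving out 1 library gave 25 to 185 and 1 to 65. For reads (1184 and 937), leaving out 1 library gave 86 to 2201 and 43 to 1905. The library-wide difference of 0.200 percentage points ranged from 0.163 to 0.220. The cause of these shifts was not tested.

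Of 1090 values for named genes under alternatives, 741 stayed on the same side of the threshold, 348 lost the call, 1 gained it and 0 changed direction. The library-wide offset for single constructs, the summed pair and the LSM14A comparison were chosen after seeing the data. No paired analysis was possible because each fusion has 1 library and shares only the number 1 with the controls. With 1 library per construct, precision is set by the control spread, and leaving out a control library leaves fewer than 2 residual degrees of freedom.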
